A study of Saccharomyces cerevisiae with 4 samples.

Results

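The regions described here are the surroundings of the 16 centromeres of budding yeast. They were chosen by position alone, as the windows of 150 bp whose midpoint lies within 5 kb of a centromere. This gave 1067 of 80474 nuclear windows (1.33%), 66 or 67 at each centromere. The windows 10 to 30 kb away on both sides, 4267 in all, served as the flank of each centromere.

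The data are chromatin immunoprecipitation followed by sequencing (ChIP-seq) from strain BY4741, a haploid laboratory strain. H3T45p, histone H3 phosphorylated at threonine 45, was recovered with one antibody and H3 of any modification with another against its C terminus. Cells in YPD, a rich medium, were taken at mid-log phase either without treatment or after 2 h in 200 mM hydroxyurea, a drug that depletes deoxynucleotides and stalls replication forks. Each of the 4 combinations was 1 library of 23588153 to 28690293 reads in windows, so no value below has a replicate, no test between conditions was possible and no p-value is given. The 4 libraries include no input, no mock immunoprecipitation and no strain that lacks threonine 45, so DNA copy number and recovery by an unspecific antibody were not measured. Both hydroxyurea libraries carry the number 1 in their titles and both untreated libraries the number 2, so the drug and any batch behind these numbers cannot be told apart.

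A budding yeast centromere is a short DNA element built of the parts CDEI, CDEII and CDEIII. CBF3, a complex that binds CDEIII, and the H3 variant Cse4 mark it, and the kinetochore assembles there in place of a regular array of H3 nucleosomes. The surrounding pericentromere is rich in cohesin, the ring complex that holds sister chromatids together. Centromeres are among the parts of the yeast genome that replicate early. Cdc7, the kinase named in the title of the series, acts with its partner Dbf4 to fire origins, and the pair is also recruited to kinetochores.

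By the systematic naming of yeast genes, which counts outward from the centromere, the neighbours of the centromeres do varied work. In the names of the RefSeq table of assembly R64, MET14 (adenylylsulfate kinase) and VPS1 (a dynamin-like GTPase) lead the arms of chromosome 11. CDC5, the Polo kinase of mitosis, leads the right arm of chromosome 13, and NTH1 and NTH2, both trehalases, lead the right arms of chromosomes 4 and 2. No source used here names the build of the files, and windows were therefore not assigned to genes.

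The positions were first checked against the signal. All libraries showed a gap at the given positions. In untreated cells the lowest H3 window of the whole 10 kb lay within 150 bp of the position at 14 of 16 centromeres, and in hydroxyurea at 15 of 16. The exception in both conditions was chromosome 6, where a window 4975 bp away was at 0 in all 4 libraries. Its window nearest the centromere held 3 reads of H3 in untreated cells and 2 in hydroxyurea. On chromosome 14 the lowest untreated window held 39 reads and lay 1575 bp away, against 43 reads in the window nearest the position.

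The gap in H3 was deep and narrow. In the window nearest the position, over all 16 centromeres, H3 averaged 5.33% of the genome median in untreated cells and 7.80% in hydroxyurea. H3T45p averaged 11.9% and 13.6%. These windows held 242 reads of H3 in untreated cells (95% exact Poisson interval 212 to 274), 382 in hydroxyurea (345 to 422), and 565 (519 to 614) and 542 (497 to 590) of H3T45p. All such intervals cover counting error only, since reads are not independent molecules.

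At the nearest window H3 was at or below 10% of the genome median at 13 centromeres in untreated cells. Of all nuclear windows outside those at 0 in all libraries, 2.37% were that low. The count in hydroxyurea was 10, beside 2.2% of windows, and for H3T45p the counts were 7 (untreated) and 8 (hydroxyurea), beside 1.59% and 2.15%. The nearest window of chromosome 15, from 326551 to 326700, held 0 reads in all 4 libraries, which allows up to 3 reads in each. The counts of centromeres above include this window, while the shares beside them leave out windows of this kind. Whether reads can be placed there was not tested.

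**Figure D1:**
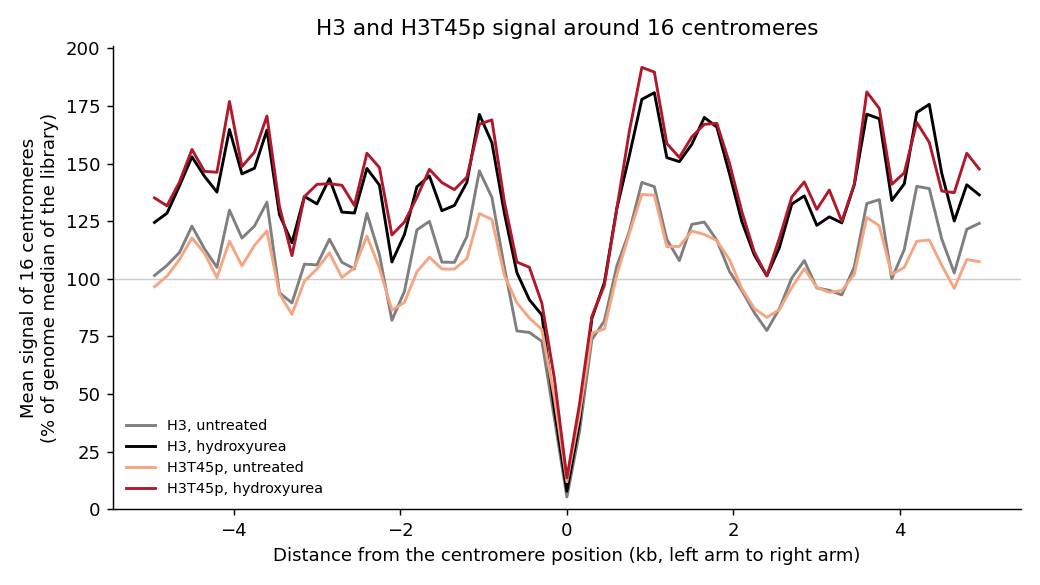
Mean signal of the 16 centromeres in windows of 150 bp, as a percentage of the genome median of each library, against the distance in kb from the centromere position, with one line for each library. All 4 lines drop to between 5.33% and 13.6% at the position, and outside the gap both hydroxyurea lines lie above both untreated lines.

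Within 300 bp of the position, called the core here, every centromere had 4 windows. Of these 64 core windows, 29 held enough H3 to enter the ratios below (at least 25% of the genome median in both conditions), so core levels are given without that filter. The core H3 signal had a median over centromeres of 80.7 in untreated cells and 92.0 in hydroxyurea, where the flanks had 350 and 414 (in units of the deposited signal, whose genome median was 280 and 277). Core H3T45p had medians of 109 and 123, beside flanks of 314 and 429. Core H3 was thus at a median of 23.7% of its own flank in untreated cells and 25.5% in hydroxyurea. For H3T45p these shares were 34.1% and 28.1%.

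The core H3 signal was at or below 50% of the genome median at 13 centromeres in untreated cells and at 12 in hydroxyurea. Among all stretches of 4 consecutive windows, 10.2% and 11.2% were that low. For H3T45p the counts were 12 and 11, beside 7.95% and 10.7% of stretches. The gap was short: counted as the run of windows under 50% of the flank around the window nearest the position, its median width for H3 was 750 bp in both conditions, from 150 to 1350 bp. For H3T45p it was 375 bp without and 675 bp with hydroxyurea.

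The cores differed among themselves. The deepest was that of chromosome 7, from 496651 to 497250, with an H3 signal of 33.7 in untreated cells and 46.0 in hydroxyurea, and an H3T45p signal of 59.2 and 50.9. Its H3 was at 8.29% and 9.41% of its flank. The core of chromosome 12 had H3 at 59.6 and 61.6 and H3T45p at 71.7 and 93.9, and that of chromosome 13 had H3 at 60.6 and 85.2 and H3T45p at 108 and 98.7, each in untreated cells and then hydroxyurea. All 3 cores lay far below the genome median in every library.

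At the other extreme stood chromosome 2, from 238051 to 238650. Its core H3 signal was 292 without and 325 with hydroxyurea, and H3T45p was 270 and 324. It was the only core at or above its flank in any library, at 114% and 101% for H3 and 118% and 100.3% for H3T45p. The gap there is confined to fewer windows: the nearest window held 11 reads of H3 in untreated cells and 18 in hydroxyurea, and the run under 50% of the flank was 300 bp wide in both. Chromosomes 5 (160 and 192) and 10 (141 and 148) had the next highest core H3. When the core was narrowed to 150 bp, no centromere had H3 above its flank in either condition.

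**Figure D2:**
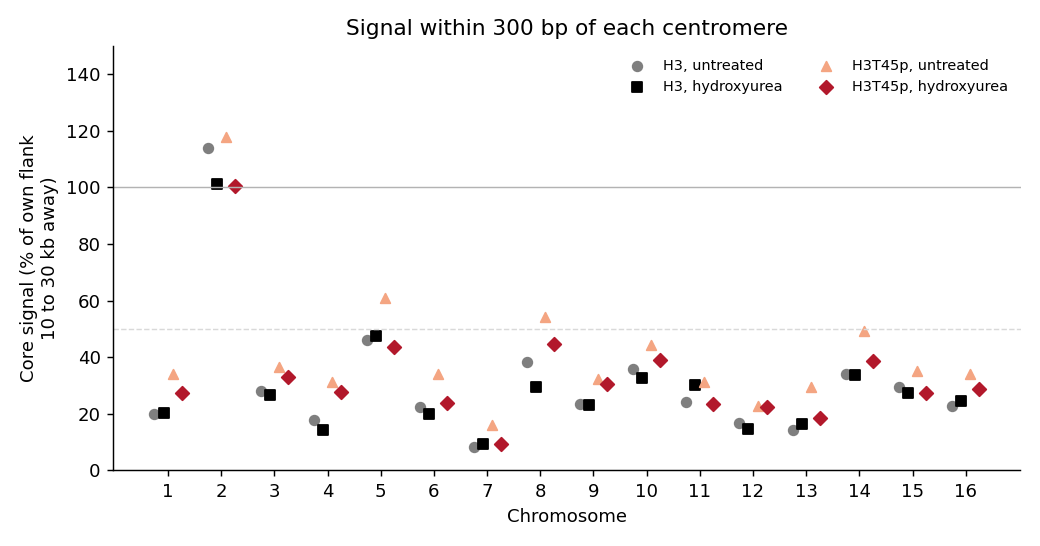
Signal within 300 bp of each centromere as a percentage of its own flank 10 to 30 kb away, by chromosome, with one marker for each library and lines at 100% and 50%. Chromosome 2 is the only one at or above 100%, and chromosome 7 is lowest in all 4 libraries, at 8.29% to 16.1%.

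H3T45p in the cores was next set against H3. With 28.3 (10% of the genome median) added to both mean signals, the log2 ratio of H3T45p over H3 in untreated cores had a median of 0.25 and was above 0 at 15 of 16 centromeres. It exceeded the ratio of the flank at all 16. In hydroxyurea the median was 0.26, with 13 above 0 and 11 above their flank. Counts above 0 depend on the deposited scale. Scaling the libraries to nuclear read totals shifted the genome median ratio by 0.12 in untreated cells and by -0.042 in hydroxyurea. In the nearest windows alone, the pooled ratio of signals was 2.31 (exact binomial interval 1.99 to 2.70) in untreated cells and 1.78 (1.56 to 2.04) in hydroxyurea. These intervals do not cover the spread among centromeres. In hydroxyurea the nearest window of chromosome 4 held 94 reads of H3T45p and 9 of H3, and that of chromosome 10 held 54 and 73. Windows poor in H3 had a high ratio across the genome in untreated cells as well. The 34 core windows under the H3 filter, leaving out those at 0, had a median of 0.36, and the 6789 such nuclear windows had 0.26. In hydroxyurea these medians were 0.13 and 0.017.

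On the deposited scale the change of the core ratio with hydroxyurea went both ways, above 0 at 8 of 16 centromeres, with a median of -0.0050. It was highest at chromosomes 4 (0.26), 12 (0.26) and 8 (0.21), and lowest at chromosomes 11 (-0.49), 13 (-0.45) and 7 (-0.40). Nuclear read totals shifted the genome median change of the ratio by -0.17, so the split around 0 depends on the scale. At chromosome 11 the core held 311 reads of H3 in untreated cells (277 to 348) and 496 in hydroxyurea (453 to 542), while H3T45p had 378 and 306 reads. At chromosome 12 it held 242 (212 to 274) and 272 (241 to 306) reads of H3, and H3T45p had 294 and 330. There the reads of both rose alike, so the size of the change, 0.26, depends on how the libraries are scaled. Equal growth of reads is not a neutral baseline, since the depth of the libraries moved in opposite directions. Nuclear reads of H3 went from 27318717 in untreated cells to 28688895 in hydroxyurea, and those of H3T45p from 25097843 to 23575911. In untreated cells and then hydroxyurea, 1 read stood for a signal of 0.985 and 0.906 in H3. In H3T45p it stood for 0.975 and 1.14.

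Outside the gap, the surroundings of centromeres held somewhat less H3 than their flanks. The mean H3 signal within 5 kb had a median over centromeres of 294 in untreated cells (230 to 346) and 376 in hydroxyurea (288 to 432). The median log2 level against the flank was -0.22 and -0.15, with 4 of 16 centromeres above their flank in each condition, those of chromosomes 2, 8, 11 and 16. The gap itself enters these means, and within 2.5 kb they were -0.40 and -0.26. Against windows 30 to 60 kb away they were -0.38 and -0.11. Among windows that passed the H3 filter, which most core windows did not, H3 was below the flank at 14 of 16 in both conditions, with chromosomes 11 and 16 above. The filter kept 973 of the 1067 windows (91.2%), and 88.6% of flank windows.

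The ratio of H3T45p over H3 in untreated cells was higher near centromeres than in the flanks. From the mean signals of kept windows, its log2 value had a median of -0.025 within 5 kb (-0.11 to 0.058) and of -0.16 in the flanks (-0.23 to -0.087). Averaged over windows the median near centromeres was instead 0.052, above 0 at 13 of 16, against -0.062 in the flanks, so the sign of the level near centromeres turned with the averaging. That sign depends on the scale as well, since nuclear read totals shifted the genome median of the untreated ratio by 0.12. From mean signals the difference was above 0 at 16 of 16 centromeres, with a median of 0.14. It was largest at chromosomes 9 (0.28), 1 (0.28) and 12 (0.23). The smallest were at chromosomes 16 (0.018), 6 (0.041) and 7 (0.042). Over 1139 tiles of 67 windows (10.05 kb) along the chromosomes the median untreated ratio was -0.12. All 16 centromeres and 4 of 16 flanks were above it, so most flanks were low for the genome. The centromere median was reached or exceeded by 17.1% of tiles.

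At chromosome 9 the kept windows had an H3T45p signal of 311 and an H3 signal of 298 near the centromere, and 388 and 459 in the flank. Both were lower near the centromere, H3 by more. At chromosome 16 they were 356 and 379 near the centromere, and 317 and 342 in the flank, so there both were higher.

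The H3 level moved with this difference. In untreated cells the ratio of kept nuclear windows was lower where H3 was higher, with a median of 0.23 in the lowest of 10 classes of H3 signal and -0.46 in the highest, and the flanks held more H3. Taken as the mean over windows, the difference between centromere and flank was 0.11, above 0 at 15 of 16 centromeres. With the median of each H3 class subtracted it was 0.057, above 0 at 13 of 16 and below it at chromosomes 3, 6 and 7. The difference that remained was largest at chromosomes 1 (0.16), 9 (0.13) and 12 (0.11). The classes rest on the mean of the untreated and hydroxyurea H3 signals, so they share H3 values with the ratio they adjust. In hydroxyurea the median ratio was -0.056 in the lowest class and -0.011 in the highest.

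In hydroxyurea the ratio near centromeres was close to that of the flanks. It had a median of 0.063 within 5 kb and 0.055 in the flanks, and the median difference was 0.012, from -0.089 at chromosome 7 to 0.13 at chromosome 11. On the deposited scale the ratio within 5 kb was above 0 at 16 of 16 centromeres, as it was at 15 of 16 flanks. These counts depend on the scale, since nuclear read totals shifted the genome median of the hydroxyurea ratio by -0.042.

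By the size rule of 0.5 on the log2 scale, few single windows departed from H3. In untreated cells 34 of 973 kept windows (3.49%) had a ratio of 0.5 or more, beside 2.25% of all kept nuclear windows, and 18 (1.85%) had -0.5 or less, beside 6.25%. In hydroxyurea 38 (3.91%) were at 0.5 or more, beside 3.78%, and 10 (1.03%) at -0.5 or less, beside 1.96%. The flanks had 1.77% and 6.82% in untreated cells and 4.97% and 2.09% in hydroxyurea. The upward share in hydroxyurea lay near that of the genome, while in untreated cells the upward share was above and the downward share below it.

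**Figure D3:**
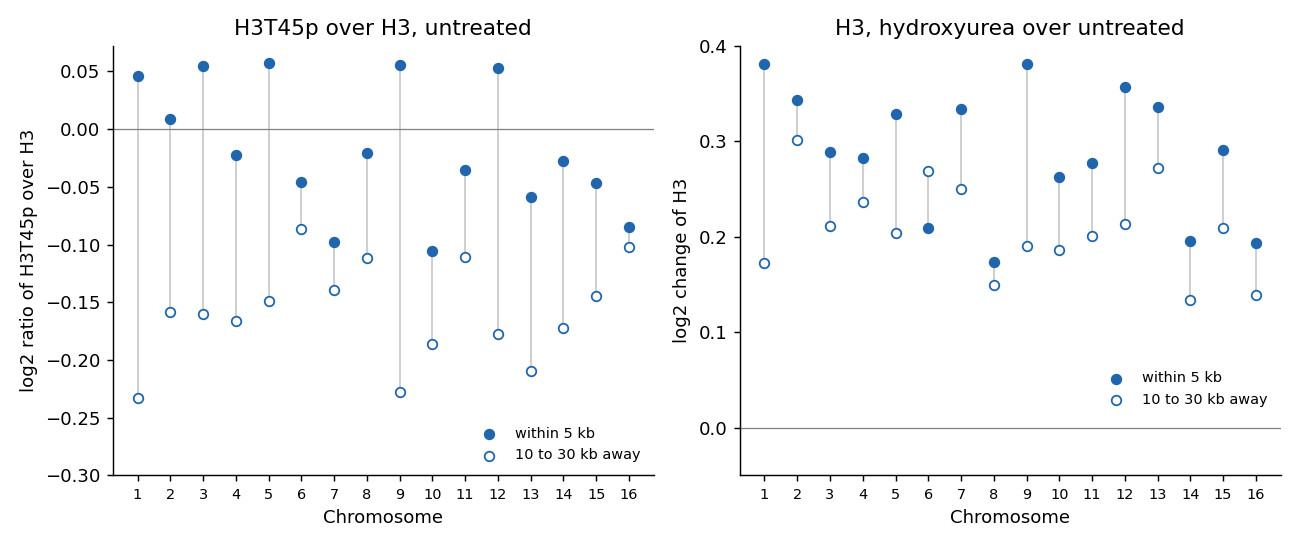
Left, log2 ratio of H3T45p over H3 in untreated cells; right, log2 change of H3 with hydroxyurea; both from kept windows, by chromosome, with filled circles for windows within 5 kb and open circles for the flank 10 to 30 kb away. The filled circle lies above the open one at 16 of 16 centromeres on the left and at 15 of 16 on the right, where chromosome 6 is the exception.

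Hydroxyurea went with more of both signals near centromeres relative to the rest of the genome. H3 within 5 kb was higher in hydroxyurea at 16 of 16 centromeres, by a median of 0.29 on the log2 scale (0.17 to 0.38), and H3T45p at 16 of 16 by 0.38 (0.25 to 0.47). Over 1139 tiles of 67 windows (10.05 kb) that cover the chromosomes, the median change was -0.088 for H3 and 0.071 for H3T45p. The H3 change at every centromere was above the upper quartile of the tiles, 0.072. For H3T45p 15 of 16 were above theirs, 0.27. The flanks ranged from 0.13 to 0.30 for H3 and from 0.29 to 0.51 for H3T45p, so every flank was above these quartiles as well.

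H3 was higher by 0.25 or more at 12 of the 16 centromeres and in 4 of the flanks, beside 8.52% of tiles. For H3T45p this held for 15 centromeres and 16 flanks, beside 26.9% of tiles. These values follow the deposited scale, which has one factor for each library. Scaling to nuclear read totals shifted the genome median change of H3T45p by -0.12 and that of the ratio by -0.17. The changes near centromeres were then 0.33 for H3 and 0.26 for H3T45p. Both were still above 0 at 16 of 16.

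The largest H3 changes near centromeres were at chromosomes 9 (0.38), 1 (0.38) and 12 (0.36). In kept windows of chromosome 9 the H3 signal was 298 in untreated cells and 397 in hydroxyurea, where its flank had 459 and 528. In those of chromosome 1 the signal was 312 and 415, where the flank had 454.5 and 516. On both chromosomes the step between the conditions was larger near the centromere than in the flank.

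The smallest H3 changes were at chromosomes 8 (0.17), 16 (0.19) and 14 (0.20). Near the centromere of chromosome 8 the H3 signal was 330 in untreated cells and 376 in hydroxyurea, where its flank had 343 and 383. Chromosomes 9, 1 and 12 also had the largest differences of the untreated ratio from the flank. Both quantities divide by the same untreated H3 library, so they are not separate evidence.

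The H3 change was graded with distance. Its median over centromeres was 0.11 in the kept windows of the core, 0.27 from 0.3 to 1 kb, 0.31 from 1 to 2.5 kb and 0.30 from 2.5 to 5 kb. Farther out it was 0.27 from 5 to 10 kb, 0.21 from 10 to 30 kb, 0.075 from 30 to 60 kb and -0.026 from 60 to 100 kb. From 0.3 to 30 kb it was above 0 at 16 of 16 centromeres in each of these classes, and at 60 to 100 kb at 7. Within 5 kb it exceeded the flank at 15 of 16 centromeres, by a median of 0.077. Against windows 30 to 60 kb away it was higher at 16 of 16, by 0.20.

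H3T45p was graded otherwise. Its median change was 0.12 in the kept windows of the core, 0.27 from 0.3 to 1 kb, 0.40 from 1 to 2.5 kb and 0.41 from 2.5 to 5 kb, then 0.43 from 5 to 10 kb and 0.43 from 10 to 30 kb. It was 0.34 from 30 to 60 kb and 0.21 from 60 to 100 kb. Within 5 kb it was below the flank at 13 of 16 centromeres, by a median of 0.054 (a difference of -0.054). The sign of that difference turned with the reference, to 0.056 against windows 30 to 60 kb away, where 12 of 16 were above.

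The change of the ratio, which is the H3T45p change minus the H3 change, was therefore smaller near the centromere than in the flank. Its median was 0.047 in the kept windows of the core, -0.0025 from 0.3 to 1 kb, 0.066 from 1 to 2.5 kb, 0.10 from 2.5 to 5 kb, 0.16 from 5 to 10 kb and 0.23 from 10 to 30 kb. Within 5 kb it had a median of 0.11, against 0.23 in the flanks. Averaged over windows in place of taken from mean signals, these were 0.0055, with 9 of 16 centromeres above 0, and 0.11. From mean signals it was below the flank at 15 of 16 centromeres, chromosome 11 being the exception. The median difference was -0.13 by either way of averaging. With the class medians of H3 subtracted it was -0.035, with 5 of 16 above 0, so the H3 level moved with this difference as well. Here too the classes share H3 values with the ratio. The sign of the change of the ratio within 5 kb was set by the scale: with nuclear read totals the median change was -0.062. On the deposited scale the median change of the ratio over the 1139 tiles was 0.15. Only 3 of 16 centromeres but 14 of 16 flanks were above it, so most flanks were high for the genome. The centromere median was reached or exceeded by 62.2% of tiles, and 5 centromeres were below the lower quartile of the tiles, 0.063.

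**Figure D4:**
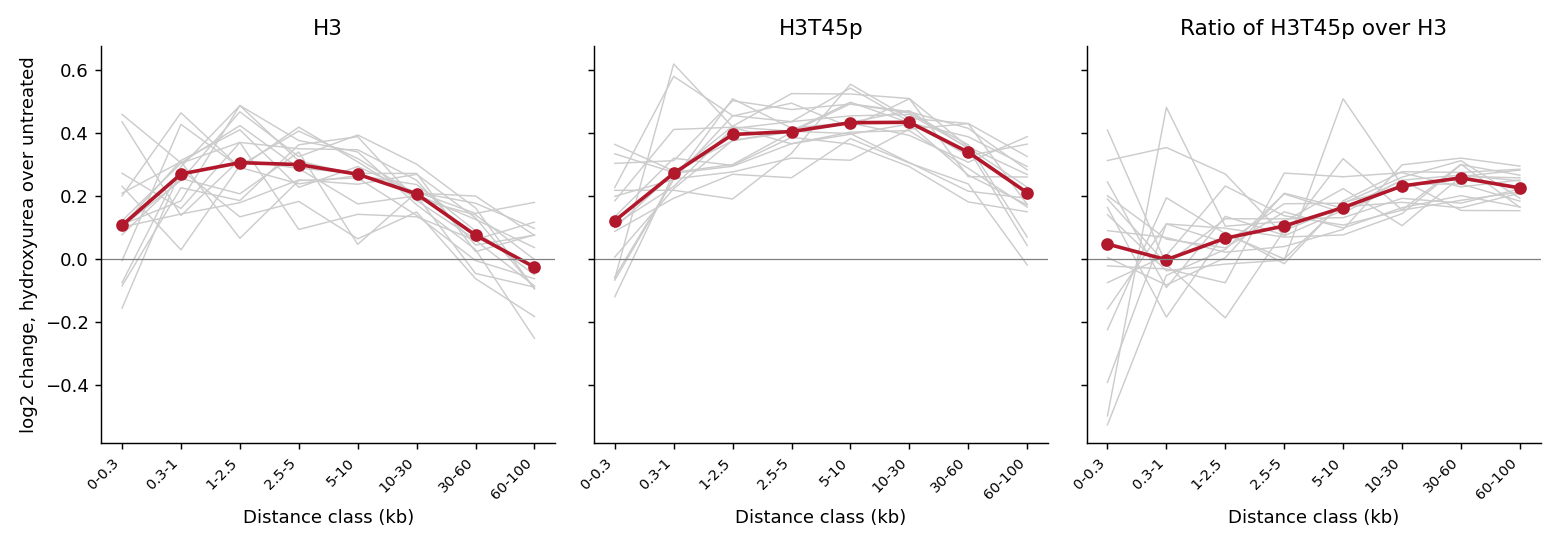
Log2 change with hydroxyurea over untreated cells for H3, H3T45p and their ratio, from kept windows, by class of distance from the centromere in kb. Grey lines are the 16 centromeres and the red line is their median, which for H3 runs from 0.31 at 1 to 2.5 kb down to -0.026 at 60 to 100 kb, and for H3T45p stays at 0.40 to 0.43 from 1 to 30 kb.

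Both arms contributed. The H3 change within 5 kb was higher on the left arm at 8 of 16 centromeres, and the sides differed by a median of 0.057 in size. The largest difference, 0.26, was seen at chromosomes 11 (0.15 left, 0.41 right) and 12 (0.25 and 0.51). The untreated ratio was higher on the left at 10 of 16.

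Single windows near centromeres changed in H3 and H3T45p mostly upward. H3 was higher by 0.5 or more in 205 of 973 kept windows (21.1%), at all 16 centromeres, beside 3.9% of all kept nuclear windows, and lower by as much in 2 (0.21%), beside 6.99%. H3T45p was higher in 217 (22.3%), beside 8.64%, and lower in 0, beside 5.93%. A count of 0 would allow up to 0.308% of these windows if they were independent draws, which neighbouring windows are not. The flanks had 13.6% and 0.77% for H3 and 28.7% and 0.29% for H3T45p.

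A ratio higher by 0.5 or more in hydroxyurea was found in 63 windows (6.47%), beside 11.1%, and one lower by as much in 73 (7.50%), beside 7.39%. The downward share was near that of the genome, and in the flanks the shares were 14.6% upward and 6.40% downward. The balance turned with the treatment of windows poor in H3: raising the pseudocount to 50% left 38 windows near centromeres that rose past the fold and 14 that fell past it, and requiring H3 of at least 50% left 55 and 30, both as shares of the genome median. Centring on the genome median gave 54 upward and 96 downward.

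The 3 windows with the highest change of the ratio belong to regions called by the authors. At chromosome 2 from 236101 to 236250 the H3T45p signal was 131 in untreated cells and 476 in hydroxyurea, with H3 at 111 and 106, a change of 1.72. The next window, from 235951, had H3T45p at 136 and 511, H3 at 93.5 and 123, and a change of 1.40. At chromosome 5 from 153151 to 153300 H3T45p was at 96.5 and 361 and H3 at 76.8 and 81.6, a change of 1.58. In these windows H3T45p stood over 3 times higher in hydroxyurea, and their H3 changes lay between -0.055 and 0.31 on the log2 scale.

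The fourth was at chromosome 11 from 439201, 625 bp left of the position, with H3T45p at 166 and 376, H3 at 178 and 188 and a change of 0.99. The fifth, at chromosome 12 from 147751, had H3T45p at 343 and 583, H3 at 538 and 449 and a change of 0.96. The lowest changes ran from -0.97 at chromosome 7 from 500851 to -0.92 at chromosome 12 from 155251, with chromosomes 2 (from 238801), 13 (from 265051) and 4 (from 448801) between them. In each of these 5 the H3 signal was between 98.5 and 121 in untreated cells and between 190 and 253 in hydroxyurea, while H3T45p was slightly lower in hydroxyurea in all 5.

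The authors' hydroxyurea list held 6 peaks within 5 kb of a centromere, of 630 in all, and the untreated list 0 of 87. Peak windows made up 9 of the 1067 (0.84%), beside 1.49% of all nuclear windows, and 64 of the 4267 flank windows. For the untreated list this was 0, beside 0.159%. A count of 0 would allow up to 0.281% if windows were independent draws, which neighbouring windows are not. How peaks were called is stated in no source used here. Since the call rests on the same hydroxyurea libraries, the values at peaks are a description.

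A single peak lay on a centromere itself, at chromosome 4 from 449701 to 450000. It held 246 reads of H3T45p (216 to 279) and 68 of H3 (53 to 86) in hydroxyurea, and 215 (187 to 246) and 76 (60 to 95) in untreated cells. The ratio of the signals was 4.54 in hydroxyurea and 2.80 in untreated cells. The H3T45p signal there was 140 with the drug and 105 without it, and the H3 signal 30.8 and 37.4, so all 4 libraries were low at this peak.

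The peaks that differed most between conditions lay beside the centromeres of chromosomes 2 and 5. The peak at chromosome 2 from 235951 to 236250, 2200 bp to the left, had 867 reads of H3T45p in hydroxyurea (810 to 927) and 273 in untreated cells (242 to 307). H3 there had 253 (223 to 286) and 208 (181 to 238) reads, and the ratio was 4.30 and 1.30. The peak at chromosome 5 from 153001 to 153300, 1150 bp to the right, had 569 (523 to 618) and 210 (183 to 240) reads of H3T45p, 180 (155 to 208) and 142 (120 to 167) of H3, and a ratio of 3.97 and 1.46.

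The other 3 had a high ratio in both conditions. These were the peaks of chromosome 14 from 631801 (4.36 in hydroxyurea and 2.79 in untreated cells) and from 632551 (3.13 and 2.58), and that of chromosome 16 from 560101 (4.80 and 4.53). The chromosome 16 window held only 23 reads of H3 in hydroxyurea (15 to 35) and 14 in untreated cells (7.7 to 23).

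**Figure D5:**
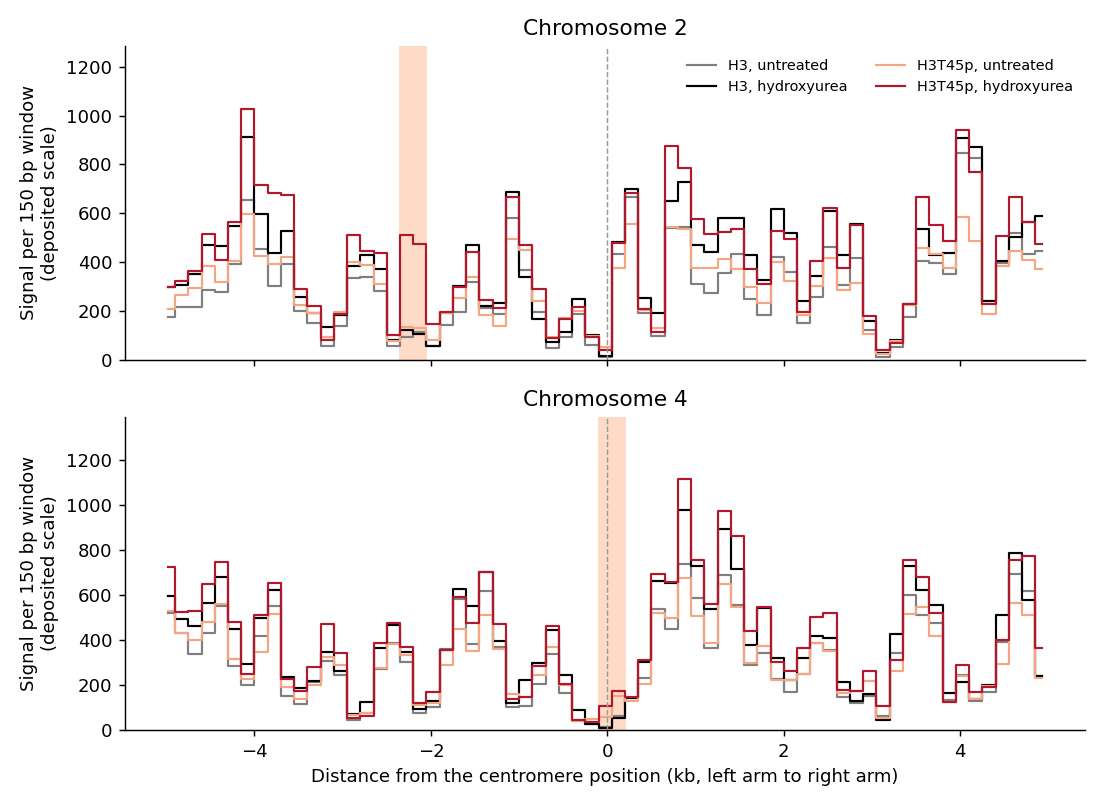
Deposited signal per window of 150 bp within 5 kb of the centromeres of chromosomes 2 and 4, against the distance in kb from the position (dashed line), with one line for each library and shading over the hydroxyurea peaks called by the authors. The peak of chromosome 2 is a window pair with H3T45p at 476 and 511 in hydroxyurea against 131 and 136 in untreated cells, while that of chromosome 4 sits in the gap, with H3T45p at 140.

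In the authors' deposited table of differences, H3T45p minus H3 averaged 21.1 near centromeres and 19.6 in the flanks in hydroxyurea. In untreated cells the authors' deposited table gave means of -2.53 near centromeres and -38.1 in the flanks. The medians over windows near centromeres in the authors' deposited table were alike, 13.8 in hydroxyurea and 14.0 in untreated cells, with 61.2% and 61.8% of the windows that are not 0 above 0. In the authors' deposited table these shares were 55.1% and 46.0% in the flanks, and 50.6% and 50.2% over all nuclear windows. By the authors' deposited table the mean difference near the centromere was above 0 at 16 of 16 centromeres in hydroxyurea and at 6 of 16 in untreated cells. For the flanks the authors' deposited table gave 15 and 0 of 16, and for all nuclear windows of each chromosome 16 and 0 of 16. The mean over all nuclear windows in the authors' deposited table was 10.4 in hydroxyurea and -30.0 in untreated cells.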

How the data were processed

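Signals of 4 ChIP-seq libraries, H3T45p and H3 with and without hydroxyurea, were analysed. Per the submitters' processing notes BWA 0.5.9-r16 and DESeq were used, without a role given, and no build is named in the sources used here. The authors deposited a signal per window of 150 bp. Divided by the smallest value above 0 of its library, 100% of values came out whole to within 0.001, so the signal is a read count divided by 1 factor per library, and reads were recovered. The peak lists hold positions without a score, and a score track from the authors holds the difference of both signals per condition. No count test was run, since 1 library per group leaves no residual degrees of freedom, and no alternative could leave out a replicate.

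Computed here with Python 3.11.15, numpy 2.4.6, pandas 2.3.3 and scipy 1.17.1 were mean signals per region, log2 ratios with 10% of the genome median (28.3) added, and exact intervals at 95%. Ratios used windows with H3 at 25% or more of the genome median in both conditions. Calls used 0.5 on the log2 scale, and 0.25 for tiles. All 16 centromeres are accounted for; by rule the 3 highest and 3 lowest, the 5 highest and 5 lowest windows and all peaks within 5 kb are named. The functions were tested on simulated data. The regions, lists and rules were chosen with earlier results of these data known. Positions are in the files' coordinates, counted from 1.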

Additional observations from a re-analysis of the deposited data

How the results depend on the processing

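Values are medians over 16 centromeres on the log2 scale, untreated before hydroxyurea. Of 61 alternative values 15 stayed within counting error or within 1.5 times the count, 44 moved and 2 turned sign. With a pseudocount of 50% of the median the H3 level against the flank was -0.17 and -0.12, core H3 -1.10 and -1.13, the untreated ratio difference 0.11, that of its change -0.11 and that of the H3 change 0.052, and 38 windows were higher and 14 lower in ratio. Without the H3 filter the untreated ratio difference was 0.15, that of the H3T45p change -0.062, and 113 windows were lower. With the filter at 50% these were 0.12, -0.044 and 30, and the difference of the ratio's change was -0.11. Within 2.5 kb the H3 level was -0.40 and -0.26, the untreated ratio difference 0.21, and the differences of change -0.17 (ratio), 0.066 (H3) and -0.11 (H3T45p), with 27 windows higher and 38 lower, as fewer windows entered. Against a flank of 30 to 60 kb the H3 level was -0.38 and -0.11, core H3 -1.92 and -1.83, the untreated ratio difference 0.17, and the differences of change -0.15 (ratio), 0.20 (H3) and 0.056 (H3T45p, sign turned). A core of 150 bp had H3 at -2.51 and -2.67. At a threshold of 1, 3 windows were higher and 0 lower. Centring on the genome median gave 54 higher and 96 lower, so 36.0% of calls were upward in place of 46.3%.

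The following were chosen after seeing the data. Leaving out windows at 0 in all libraries put the H3 level in hydroxyurea at -0.20. Nuclear read totals gave changes within 5 kb of 0.33 (H3), 0.26 (H3T45p) and -0.062 (ratio, sign turned, since the scaling shifts it by -0.17). Means of window ratios gave ratio differences of 0.11 and 0.024, with 0.0055 for the change within 5 kb, and with H3 class medians subtracted 0.057 and 0.024, with -0.035 for the difference of the change. Other causes of these moves were not tested. No paired analysis was possible because the groups share fewer than 2 replicate numbers. With few reads, depth limits the core windows.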
